A study of Homo sapiens with 4 samples.

Results

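The 1072 promoter regions described here rose in accessibility rank when pancreatic progenitor (PP) cells were treated with I-BET151. The peaks of 4 ATAC-seq libraries, which map open chromatin, were merged on chromosomes 1 to 22, X and Y into 164301 regions. All 4 libraries called 25627 of them, and 8665 of these lay within 1 kb of the start of a protein-coding gene (shared promoters). Within each library the regions called in all 4 were ranked by their highest fold enrichment, the ratio of the reads at the peak summit to the local background. Reads and background given for a library are thus those at the summit of its own highest peak in the region. The position given for a summit is that in the library with the highest fold enrichment. The rank within each library was written as a percentile from 0 to 100. A rising promoter was selected on these measured percentiles, as a shared promoter whose lowest I-BET151 percentile exceeded its highest DMSO percentile by at least 10 points (the gap). The percentiles chose the promoters, so all values of the contrast between the groups are given as a description, with no test.
The PP cells were derived from MEL1, an established human embryonic stem cell line, which the methods list as MEL1 INS GFP/W, with a GFP reporter at 1 allele of the insulin gene in all groups. They were treated with DMSO, the solvent control, or with I-BET151 at 1 μM over 7 days (the labels do not say whether this time also holds for DMSO), with 2 libraries per group. Both groups were kept in EF6 medium, that is DMEM with B27, the growth factors EGF (50 ng/ml) and bFGF (10 ng/ml), and the TGFβ inhibitor 616452 at 10 μM, so the DMSO cells carried all of these agents as well. Nothing states that libraries of a group came from separate cultures, and the spread between them may be technical. A single cell line was used, and as whole populations were assayed, fewer cells with an open promoter and less open chromatin per cell cannot be told apart.

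ATAC-seq uses the Tn5 transposase, which inserts sequencing adapters where DNA is not covered by nucleosomes. Active promoters lose nucleosomes just before the gene start and are among the most accessible sites of a genome. BET proteins bind acetylated histones through their bromodomains and recruit the transcription elongation machinery, and I-BET151 is a small molecule that occupies these bromodomains and displaces the proteins from chromatin.

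The DNA just before the gene start is shown for 6 of the 15 rising promoters with the widest gap. These are among the promoters whose rank moved furthest. The summit with the highest fold enrichment lay outside all 6 stretches shown. It lay further before the gene start at PCDHGC4, PRUNE2 and MZT2A, and after the gene start at CLBA1, TEDC2 and NENF. Motif matches in these stretches thus do not describe the DNA at that summit. The sequences are from hg38, run 5′ to 3′ on the strand of the gene and end at the base before its start, and they stop where another annotated exon begins. Capitals mark exact matches, on either strand, to 16 motifs that were searched, which include the GC box of SP and KLF factors (GGGCGG), the CCAAT box of NF-Y, and the ETS motif (CCGGAAG). The positions are chr5:141484797-141484996 (plus strand) for PCDHGC4, chr9:76906115-76906314 (minus strand) for PRUNE2, chr2:131492744-131492812 (minus strand) for MZT2A, chr14:104985575-104985774 (plus strand) for CLBA1, chr16:2459980-2460085 (plus strand) for TEDC2 and chr1:212432776-212432919 (plus strand) for NENF.
PCDHGC4: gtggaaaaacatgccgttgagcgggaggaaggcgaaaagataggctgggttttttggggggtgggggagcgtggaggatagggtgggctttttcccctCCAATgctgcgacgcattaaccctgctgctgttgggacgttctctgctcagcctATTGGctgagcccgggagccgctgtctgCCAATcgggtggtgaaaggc
PRUNE2: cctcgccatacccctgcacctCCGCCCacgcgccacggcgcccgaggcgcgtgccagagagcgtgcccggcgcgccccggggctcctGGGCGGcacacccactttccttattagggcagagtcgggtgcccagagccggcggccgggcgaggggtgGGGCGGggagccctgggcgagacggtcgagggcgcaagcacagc
MZT2A: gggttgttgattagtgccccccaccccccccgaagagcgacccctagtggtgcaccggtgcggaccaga
CLBA1: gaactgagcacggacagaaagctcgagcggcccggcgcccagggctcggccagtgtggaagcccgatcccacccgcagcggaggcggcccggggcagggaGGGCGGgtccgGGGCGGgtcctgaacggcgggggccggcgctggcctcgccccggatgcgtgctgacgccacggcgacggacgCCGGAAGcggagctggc
TEDC2: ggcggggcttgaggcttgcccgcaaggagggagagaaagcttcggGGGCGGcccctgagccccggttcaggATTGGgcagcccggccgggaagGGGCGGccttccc
NENF: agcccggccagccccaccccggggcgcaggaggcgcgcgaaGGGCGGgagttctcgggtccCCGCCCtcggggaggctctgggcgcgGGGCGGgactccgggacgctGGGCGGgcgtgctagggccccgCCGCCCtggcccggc
GC boxes were present in 4 of these 6 sequences, namely at PRUNE2, CLBA1, TEDC2 and NENF. The sequence of PCDHGC4 held 3 CCAAT boxes, which started 102, 48 and 20 bases before the gene start, and no GC box. An ETS match stood 17 bases before the start of CLBA1, and the 69 bases of MZT2A held none of the motifs. GC content ran from 59.0% at PCDHGC4 to 83.3% at NENF. A match is a description of the letters, and no binding was measured here.

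The lists held between 38295 and 111324 peaks. Estimated from the genome background, the DMSO libraries held 38.7 and 36.6 M reads, against 12.5 and 16 M for I-BET151. The narrowest peaks measured 200 bp in the replicate 1 lists, and 233 bp (DMSO) and 256 bp (I-BET151) in the replicate 2 lists, a width that MACS2 ties to its read extension. The depths are estimates that take this width as the extension, although the methods state 200 bp for all libraries. Of 10 marker genes of pancreatic progenitors, between 6 and 9 had a called promoter in each library and 6 (NKX6-1, SOX9 and FOXA2 among them) had a shared promoter, none of which was among the rising promoters. PDX1, ONECUT1, GATA4 and PTF1A had no promoter called in all 4 libraries. No shared promoter was found for the 8 endocrine markers, INS, GCG and SST included, or for the 4 endothelial markers. Shared promoters were present for 4 of 6 mesenchymal, 3 of 4 intestinal, 2 of 5 pluripotency, 1 of 5 acinar, 1 of 5 liver and 1 of 4 neural markers, and of these only COL1A1 and VIL1 rose in rank by the rule.

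The widest gap, 74.4 points, was at PCDHGC4 (ENSG00000242419, chr5:141484452-141485413), a member of the clustered protocadherins, which mediate adhesion between neurons. Its percentile was 4.67 and 8.97 with DMSO and 83.4 and 89.1 with I-BET151, and its fold enrichment was 3.18 and 3.20 with DMSO and 11.9 and 14.6 with I-BET151. The summit with the highest fold enrichment lay 238 bp before the gene start and outside annotated exons. Each at its own summit, the DMSO libraries carried 21 and 21 reads and the I-BET151 libraries 53 and 91. The DMSO mean of 6.82 ± 3.04 and the I-BET151 mean of 86.3 ± 4.01 (SD, n = 2 each) describe the values that chose this promoter.
PRUNE2 (ENSG00000106772, chr9:76905901-76906747) had percentiles of 5.59 and 5.67 with DMSO and 83.3 and 76.4 with I-BET151. At STARD10 (ENSG00000214530, chr11:72793487-72794440), a lipid transfer protein at a locus associated with type 2 diabetes, they were 4.19 and 8.08 with DMSO and 76.8 and 80.3 with I-BET151. The start of ARAP1, which regulates small GTPases, lies within 1 kb of the same region. XKR8 (ENSG00000158156, chr1:27959539-27960399), a scramblase that exposes phosphatidylserine in apoptotic cells, had percentiles of 1.15 and 8.22 with DMSO and 82.1 and 76.9 with I-BET151. In all 3 promoters both DMSO libraries lay below percentile 10 and both I-BET151 libraries above percentile 75.

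A further 3 regions began higher and ended near the top of the ranking. MZT2A, a component of the γ-tubulin complexes that nucleate microtubules (chr2:131492373-131493197), had percentiles of 24.5 and 19.7 with DMSO and 96.2 and 92.2 with I-BET151. The region between WDR53 and FBXO45, a subunit of a ubiquitin ligase (chr3:196568283-196569010), was at 20.3 and 21.8 with DMSO and 93.3 and 89.4 with I-BET151. UMPS, which completes the synthesis of the pyrimidine nucleotide UMP (chr3:124730121-124730888), was at 24.5 and 24.4 with DMSO and 95.6 and 89.8 with I-BET151. Their pileups were low in the DMSO libraries, with 15 and 14 reads at MZT2A, 18 and 17 reads at WDR53 and 15 reads in each library at UMPS.
CLBA1 (chr14:104985483-104986214) had percentiles of 7.01 and 4.69 with DMSO and 73.6 and 93.7 with I-BET151, so that the I-BET151 libraries were further apart than in the other 14. TEDC2, a centriole protein (chr16:2459561-2460588), was at 1.04 and 5.77 with DMSO and 71.6 and 82.1 with I-BET151. CDH15, the cadherin of skeletal muscle (chr16:89171146-89171939), was at 6.91 and 4.18 with DMSO and 72 and 71.9 with I-BET151. CLBA1 and CDH15 were the ones among the 15 whose gap fell below 10 points when the reads at the summit were ranked in place of the fold enrichment. CDH15 carried 45 and 36 reads in the DMSO and 42 and 98 in the I-BET151 libraries over a local background of 12.8 and 11.5 reads in the DMSO and 3.10 and 7.17 in the I-BET151 libraries. By the rank of the reads alone its gap was −9.52 points and that of CLBA1 was 3.27 points.

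NENF, a secreted neurotrophic factor (chr1:212432617-212433867), had percentiles of 4.32 and 1.11 with DMSO and 68.7 and 74.6 with I-BET151. ABHD4, a hydrolase of N-acyl phospholipids (chr14:22597992-22599143), was at 0.336 and 5.26 with DMSO and 71.7 and 68.5 with I-BET151. PRPF6, a spliceosome component that shares its region with SAMD10 (chr20:63980700-63981569), was at 5.63 and 7.65 with DMSO and 82.5 and 70.7 with I-BET151. All 3 lay near the bottom of the DMSO rankings.
OR51D1, an olfactory receptor gene (chr11:4636932-4637512), had percentiles of 12.5 and 11.6 with DMSO and 84.4 and 75.5 with I-BET151, with a summit 323 bp before its start. MRPL38, a protein of the large subunit of the mitochondrial ribosome (chr17:75904639-75905402), was at 16.7 and 12.5 with DMSO and 88.2 and 78.7 with I-BET151. Over the 15 promoters the fold enrichment lay between 2.61 and 4.14 in DMSO replicate 1, between 2.69 and 3.76 in DMSO replicate 2, between 10.1 and 14.9 in I-BET151 replicate 1 and between 11.8 and 15.8 in I-BET151 replicate 2. The pileup had a median of 20 reads in each DMSO library and of 36 and 64 reads in the I-BET151 libraries. Ranked by −log10 p in place of fold enrichment, all 15 kept a gap of at least 10, with a median of 54.1 points, and ranked by the reads at the summit 13 of the 15 did, with a median of 32.2 points. These promoters rested on weak DMSO peaks. With equal numbers of peaks per list 3 of the 15 were still called in all 4 libraries, and with peaks of −log10 p of at least 10 it was 0 of the 15.

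**Figure D1:**
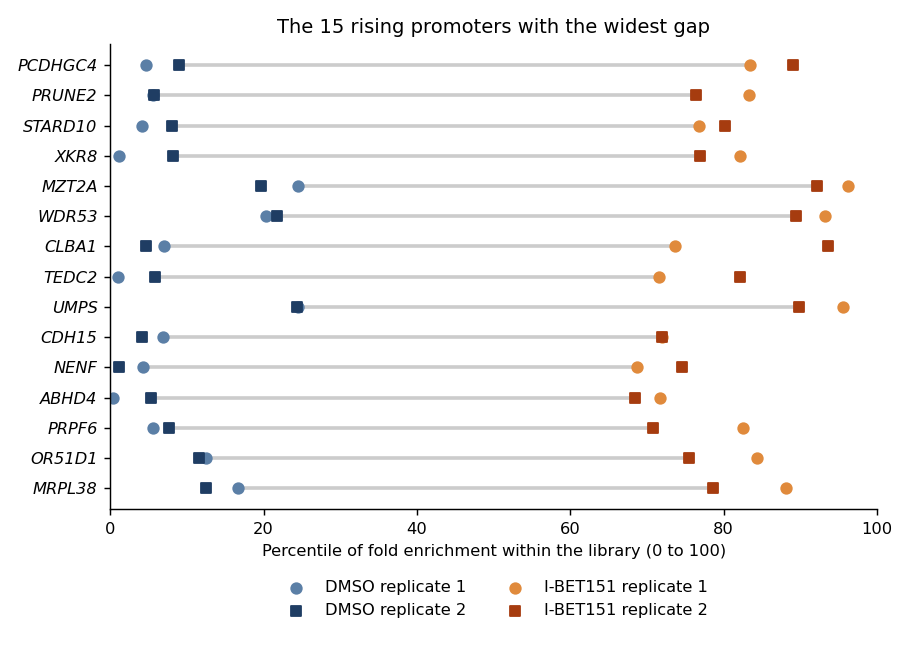
Percentile of fold enrichment within each library (x axis, 0 to 100) for the 15 rising promoters with the widest gap, 1 row per promoter named by its nearest gene. Points are single libraries, circles for replicate 1 and squares for replicate 2, and the grey line spans the gap, which runs from 62.0 points at MRPL38 to 74.4 points at PCDHGC4.

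Most rising promoters moved over a shorter range. The gap had a median of 19.9 points (quartiles 13.8 and 28.4), 528 promoters reached at least 20 points, 105 at least 40, 46 at least 50 and 18 at least 60. The median percentile of the 1072 promoters was 27.6 and 33.6 in the DMSO libraries and 72.6 and 68.8 in the I-BET151 libraries, while over all 8665 shared promoters it was 60.1 and 66.8 with DMSO and 66.0 and 56.0 with I-BET151. By their mean DMSO percentile 451 (42.1%) started below percentile 25, 338 from 25 to 50, 249 from 50 to 75 and 34 (3.17%) from 75 up. By their mean I-BET151 percentile 443 (41.3%) ended at 75 or above and 30 (2.80%) below 25. By the rank of this ratio, the rising promoters thus included low sites that moved to the middle and middle sites that moved to the upper part.
The 2 DMSO libraries were a median of 6.95 points apart at a rising promoter and the 2 I-BET151 libraries 8.05 points apart, beside 7.32 and 10.2 points over all shared promoters.

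**Figure D2:**
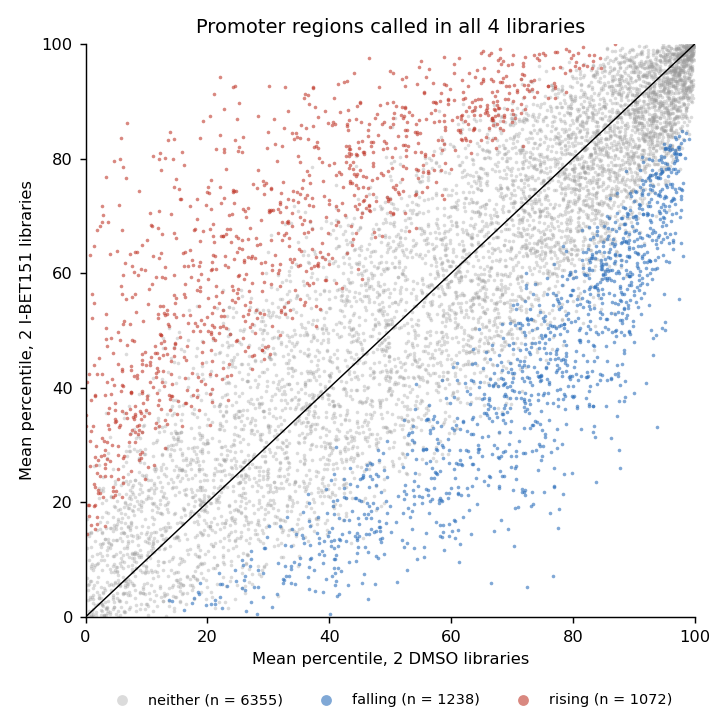
Mean percentile over the 2 DMSO libraries (x axis) and over the 2 I-BET151 libraries (y axis) for the 8665 shared promoters, 1 point each, with the 1072 rising promoters in red, the 1238 falling promoters in blue and the 6355 others in grey. The rising promoters lie above the diagonal, as the rule sets, with DMSO percentiles of at most 87.7 in replicate 1 and 87.1 in replicate 2.

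The gap of 10 points is a limit set on a continuous distribution. Just inside it were SRRD with HPS4, with percentiles of 42.6 and 48 with DMSO and 58 and 60.1 with I-BET151 and a gap of 6.83 by −log10 p and 6.61 by reads. KMT2B, a histone H3 lysine methyltransferase, was at 19.5 and 18.7 with DMSO and 59.3 and 29.5 with I-BET151, and its I-BET151 libraries were far apart. ZNF623 was at 25.2 and 36.9 with DMSO and 79.3 and 46.9 with I-BET151. Just outside it were TRIM28, the corepressor of KRAB zinc finger proteins, with 51.7 and 76 with DMSO and 86 and 91.1 with I-BET151. NHSL1 was at 6.19 and 9.03 with DMSO and 26.5 and 19 with I-BET151. OSCP1 was at 84.4 and 74.4 with DMSO and 99.3 and 94.3 with I-BET151, a high rank in all libraries. The first 3 had gaps of 10.0 points and the others of 9.99, 9.98 and 9.96 points.
By the rule 12.4% of the shared promoters rose, and by its mirror image (the highest I-BET151 percentile at least 10 points below the lowest DMSO percentile) 14.3% fell. The balance of the directions depended on the scale, since 842 rose and 545 fell ranked by −log10 p, 795 rose and 561 fell ranked by reads, and 1664 rose and 171 fell with percentiles among all peaks of each list. Without a minimum gap, both I-BET151 percentiles lay above both DMSO percentiles at 24.9% of the shared promoters. Among all regions called in the 4 libraries the same gap was reached upward by 14.7% and downward by 13.8%, and among the 16962 shared regions away from promoters by 15.8% and 13.5%. A rank carries no information on the total accessibility of a library, so these shares do not measure a general gain. Rising promoters were a smaller share of shared promoters than rising regions were of the shared regions elsewhere. However, shared promoters had median DMSO percentiles of 60.1 and 66.8 among all shared regions, and high ranks have less room to rise. With percentiles among shared promoters alone, 1227 (14.2%) rose and 1324 fell. The part of the starting rank in this comparison was not tested.

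The 1072 promoters were chosen on all 4 libraries. For a reading in libraries that took no part in a choice, promoters were chosen anew on 1 library per group, split by replicate number, and the difference was read in the other 2 libraries. The regions were still those called in all 4. In the replicate 1 pair 36.1% of the shared promoters (3130) had a percentile at least 10 points higher with I-BET151 than with DMSO. Of these, 1335 (42.7%) were at least 10 points higher in the replicate 2 pair as well, where 19.8% of all shared promoters were, and their median difference there was 6.21 points against −5.91 over all. Chosen on the replicate 2 pair (1720 promoters), 77.6% were at least 10 points higher in the replicate 1 pair, where 36.1% of all were, with a median of 25.9 points against 2.51. Promoters chosen as falling in the replicate 1 pair were at least 10 points higher in the replicate 2 pair in 4.85% of cases.
Low starting ranks had more room to rise, and the comparison was therefore repeated within bands of 25 points of the DMSO percentile in the pair that was read. Below percentile 25 in the replicate 2 pair 58.9% of the chosen promoters were higher by at least 10 points against 42.4% of all, and from 75 up 16.3% against 4.09%. In the replicate 1 pair the shares were 89.2% against 67.1% below 25 and 38.9% against 8.07% from 75 up. Each pair holds 1 library per group, and no test was made. The 1335 promoters at least 10 points higher in both pairs include all 1072. The shares are therefore no separate support for the 1072 promoters. Both pairs also hold the lower estimated depth of the I-BET151 libraries, and its part was not tested.

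**Figure D3:**
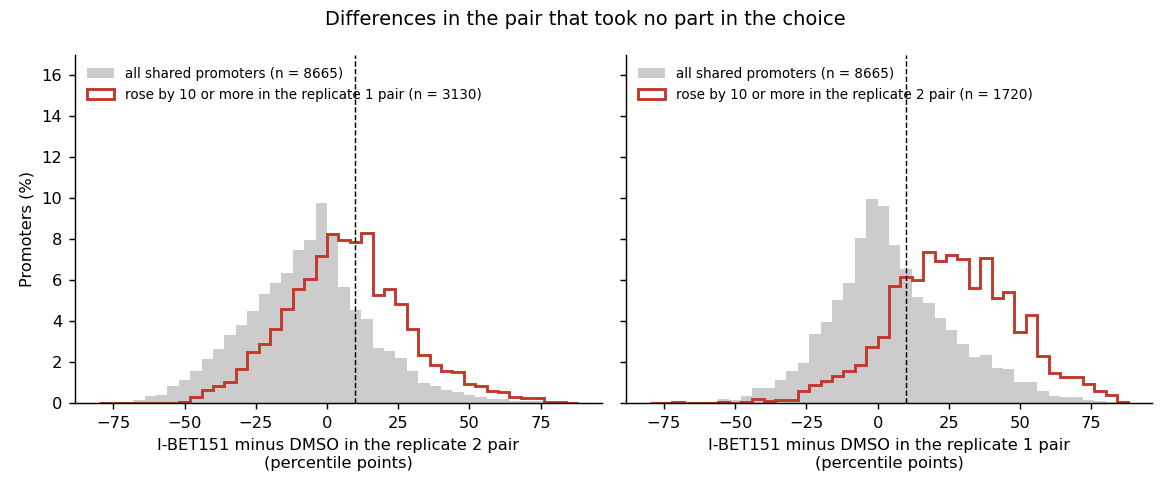
Difference in percentile between I-BET151 and DMSO (x axis, points) in the replicate 2 pair for promoters chosen on the replicate 1 pair (left) and the reverse (right), as a percent of promoters in each bin (y axis). The chosen promoters (red line) lie to the right of all 8665 shared promoters (grey), and the dashed line marks 10 points, reached by 42.7% of the chosen promoters on the left and 77.6% on the right.

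Fold enrichment is a ratio, and its numerator and denominator were solved from the deposited values. The pileup at the summit of a rising promoter had a median of 27 (replicate 1) and 26 reads with DMSO, against 34 and 63 reads with I-BET151, whereas all shared promoters had medians of 35 and 34 reads with DMSO and of 40 and 76 reads with I-BET151. By these medians rising promoters carried fewer reads than all shared promoters in every library, and the shortfall was relatively smaller with I-BET151. The local background divided by the genome background of the same library was 1.95 and 1.78 with DMSO, close to the values of 1.87 and 1.78 over all shared promoters. With I-BET151 it was 2.52 and 3.00 against 3.42 and 4.25 over all. In the I-BET151 libraries the rising promoters thus had a lower background around the peak than all shared promoters, while their reads at the summit stayed below those of all.
Ranked by reads at the summit alone, 384 of the 1072 promoters (35.8%) kept a gap of at least 10 points, beside 9.17% of all shared promoters, and at 102 (9.51%) both I-BET151 libraries ranked below both DMSO libraries. Ranked by −log10 p, 636 (59.3%) kept the gap, beside 9.72% of all. Ranked by the local background, lowest first, 462 (43.1%) kept it, beside 14.8% of all. How far the background moved the choice was not tested beyond these counts.
Counting error was large against the gap. At a rising promoter 1 SD of the pileup corresponded to a median of 17.2 and 18.4 percentile points in the DMSO libraries and of 14.6 and 12.4 points in the I-BET151 libraries. With every pileup moved by 1 such SD toward the other group, the groups were still apart at 232 promoters (21.6%), and 81 (7.56%) kept a gap of at least 10 points. Peaks of rising promoters had median widths of 425.5 and 508 bp with DMSO and of 620 and 852 bp with I-BET151.

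**Figure D4:**
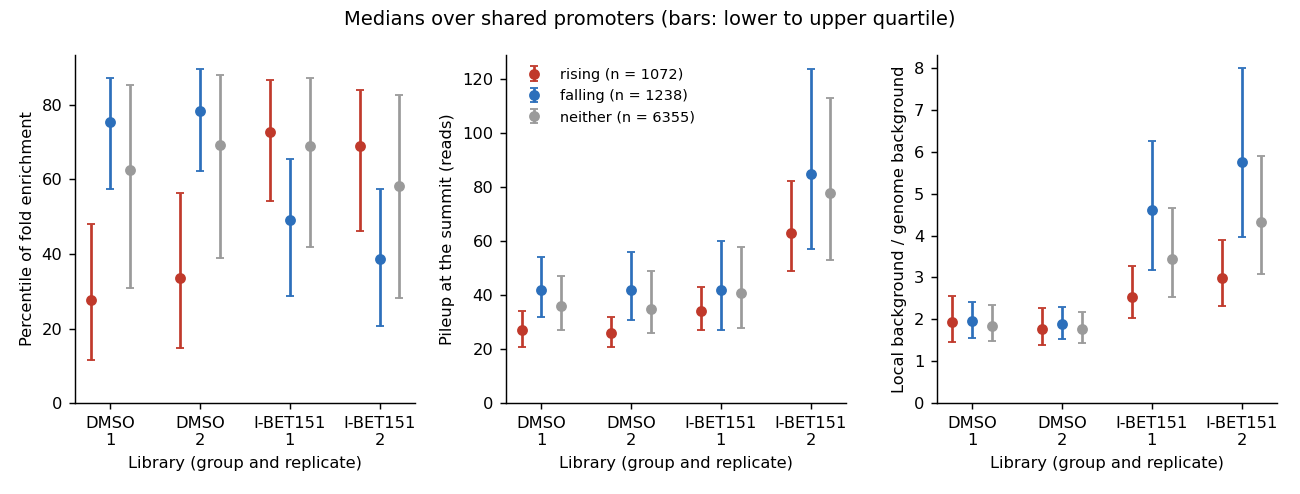
Medians with lower and upper quartiles (bars) in each library for the 1072 rising, 1238 falling and 6355 other shared promoters, as percentile of fold enrichment (left), reads at the summit (middle) and local background over the genome background (right). The rising promoters have the lowest pileup medians in all 4 libraries and the lowest relative background in both I-BET151 libraries, 2.52 and 3.00.

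Position in the genome, which the rule did not use, set rising promoters apart as a description. A rising promoter had a median of 5 protein-coding gene starts within 100 kb on either side of its summit, its own included (quartiles 3 and 8), against 2.5 at falling promoters and 3 at the others. Where its own was the only one, 119 of 1671 shared promoters (7.12%) rose, and the share was 9.27% with 2 or 3 starts, 14.4% with 4 to 6, 21.3% with 7 to 10 and 18.5% with 11 or more. The share of falling promoters ran the other way, from 20.7% to 8.10%. Over the same bands the relative local background of all shared promoters had medians of 1.82, 1.77, 1.82, 2.21 and 2.45 in DMSO replicate 1 and of 1.76, 1.70, 1.73, 1.99 and 2.19 in DMSO replicate 2. In the I-BET151 libraries it had medians of 4.01, 3.51, 3.10, 3.06 and 3.29 in replicate 1 and of 4.70, 4.32, 3.90, 3.99 and 4.33 in replicate 2. With DMSO it was highest in the densest bands, and with I-BET151 at isolated gene starts. The part of background or gene density in the rise was not tested.
The largest shares were those of chromosome 22, with 34 of 158 shared promoters (21.5%), followed by 18.1% on chromosome 9, 18% on chromosome 16, 17.5% on chromosome 17 and 17% on chromosome 19. The smallest share on an autosome was 26 of 389 (6.68%) on chromosome 4, where 20.3% fell, and on chromosome 19 6.14% fell. Genes of rising promoters were shorter, with a median length of 24170.5 bp against 51008 bp for falling promoters and 36803 bp for the others, and the merged regions were narrower, with a median of 917.5 bp against 1282 bp and 1055 bp. The summit lay within 100 bp of the gene start at 48.5% of rising, 34.9% of falling and 46.3% of the other promoters. Gene starts on opposite strands shared the region at 11.2%, 16.3% and 13.6%, respectively. Regions gained with I-BET151, called in both I-BET151 libraries and in neither DMSO library, lay within 10 kb of 13.2% of rising, 15.5% of falling and 13.3% of the other promoters.

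**Figure D5:**
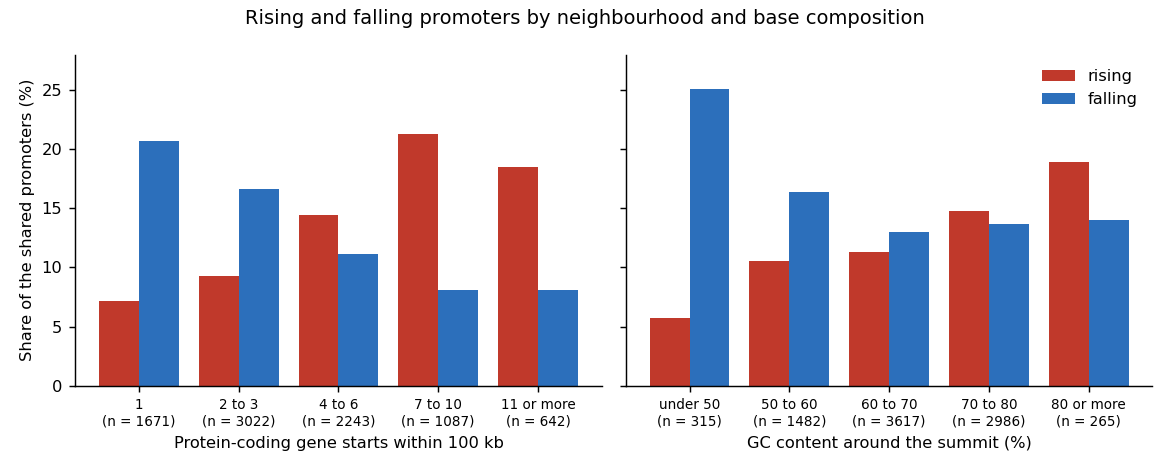
Share of the shared promoters (y axis, percent) that rose (red) or fell (blue), by the number of protein-coding gene starts within 100 kb (left) and by the GC content of the 100 bp on each side of the summit (right), with the number of shared promoters under each pair of bars. The rising share climbs from 7.12% at isolated gene starts to 21.3% with 7 to 10 starts, and from 5.71% at a GC content under 50% to 18.9% at 80% or more.

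Base composition differed little. Within 100 bp of the summit the GC content of rising promoters had a median of 69.2% (quartiles 63.2% and 74.1%), against 66.7% at falling promoters and 67.2% at the others, and 45.9% of the rising promoters reached 70% against 36.1% and 36.4%. The rising share was 5.71% of the 315 shared promoters with a GC content under 50% and 18.9% of the 265 with 80% or more. The ratio of observed to expected CpG had medians of 0.858, 0.843 and 0.838 in rising, falling and other promoters. It had a median of 0.748 over the 20033 protein-coding gene starts, in a window of the same length centred on the gene start. The order of rising and falling promoters by GC content depended on the window. Between 250 bp before and 50 bp after the gene start the median was 64.3% at rising, 65.0% at falling and 63.7% at the other promoters. In that window 30.2%, 31.3% and 26.1% reached 70%, in the same order.
Motif shares are descriptions, and their differences were not tested. The windows of the promoters were centred on the summit in the library with the highest fold enrichment. Even at falling promoters its median was 6.53 and 6.15 with DMSO and 8.26 and 9.11 with I-BET151. An I-BET151 library could therefore set the centre more often, and how often was not counted. The windows of all gene starts were centred on the gene start. The shares of all gene starts are therefore not a like comparison. The GC box (GGGCGG) was present within 100 bp of the summit in 65.5% of rising, 61.1% of falling and 63.2% of the other promoters, and in 47.0% of all gene starts. For the CCAAT box the shares, in the same order of rising, falling, other promoters and all gene starts, were 26.2%, 27.3%, 30.7% and 26.0%. The ETS motif (CCGGAAG), read by GABPA and its relatives, was present in 16.8% of rising promoters, 7.43% of falling promoters, 15.5% of the others and 10.2% of all gene starts. The RFX motif (GTTGCCA) was present in 4.1%, 2.5%, 2.74% and 2.91%, and the YY1 motif (AAGATGGCG) in 3.17%, 1.62%, 2.49% and 2.04%. The consensus of the insulator protein CTCF was found in 11 rising promoters (1.03%), 3 falling (0.242%), 38 others (0.598%) and 72 gene starts (0.359%). Of the 11 rising promoters, 3 had a gap of at least 50 points, as had 46 (4.29%) of all rising promoters. The median gap was 23.8 points in rising promoters with a match and 19.8 points in those without. The gap chose these promoters, and whether its width goes with a CTCF match was not tested. Motifs of factors that shape the pancreas were rare within 100 bp of the summit. HNF6 (ATCGAT) was matched in 4 rising promoters (0.373%) and 13 falling promoters (1.05%), against 0.629% of the others and 0.499% of all gene starts. FOXA (TGTTTAC) was matched in 9 rising promoters (0.84%) and in 2.1%, 1.18% and 1.38% of the other sets, in the order above. The order of the sets depended on the window. Within 250 bp of the summit FOXA was matched in 3.82% of rising, 4.44% of falling and 3.16% of the other promoters. The motif of the zinc finger factors GATA4 and GATA6, written AGATAAG, had shares of 0.653%, 0.808%, 0.755% and 1.38%. AP-1 (TGANTCA) was present in 2.15%, 3.72%, 2.19% and 3.9%, and CRE (TGACGTCA) in 1.68%, 2.67%, 2.31% and 1.87%. From 250 bp before to 50 bp after the gene start, AP-1 was present in 4.76% of rising, 4.28% of falling and 4.2% of the other promoters. NRF1 (GCGCATGCG) was present in 1.68%, 2.34%, 2.36% and 1.91%, and the E-box (CACGTG) in 7.56%, 7.51%, 7.11% and 5.88%. The TATA box (TATAAA) was present in 1.21%, 2.83%, 1.9% and 7.09%. From 250 bp before to 50 bp after the gene start, it was present in 5.88% of rising, 6.62% of falling and 5.96% of the other promoters. E2F (TTTCCCGC) was present in 1.31%, 1.7%, 1.64% and 1.24%, and ZNF143 (ACTACAATT) in 0.280%, 0.485%, 0.566% and 0.245%. Some of these motifs share letters, so 1 stretch of DNA can count for more than 1 of them. Both strands were searched with exact letters, where N is any base.

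The rising promoters belonged to 1227 of the 10089 genes with a shared promoter (12.2%), and falling promoters to 1489 (14.8%). Gene groups are given against these shares. At 27 of the 85 named promoters the gap was below 10 points both by −log10 p and by reads, and these values are given where such a promoter is described. Among 24 pancreatic transcription factors with a shared promoter 2 (8.33%) rose and 7 (29.2%) fell. ISL1, which is needed for endocrine differentiation (chr5:51382821-51383818), had percentiles of 1.83 and 9.91 with DMSO and 67.6 and 47.8 with I-BET151. Its peaks carried 17 and 19 reads in the DMSO and 32 and 50 in the I-BET151 libraries, each at its own summit. MAFA, a transactivator of the insulin gene, was at 34.9 and 57 with DMSO and 74.3 and 79.3 with I-BET151. The peaks of MAFA carried 51 and 46 reads in the DMSO and 45 and 101 in the I-BET151 libraries. By reads alone its I-BET151 libraries thus ranked below its DMSO libraries (gap −11.4 points), and by −log10 p its gap was 1.40 points. Of the progenitor markers, GATA6 was at 53 and 57.5 with DMSO and 27.6 and 14.4 with I-BET151 and fell by the mirror rule. SOX9 was at 14.2 and 24.8 with DMSO and 24.9 and 16.6 with I-BET151, with overlapping groups.
In the Notch pathway, through which neighbouring progenitors restrain each other's differentiation, 4 of 27 genes (14.8%) rose and 2 fell. POFUT1, which adds the O-fucose that Notch receptors need to bind ligands, had percentiles of 8.90 and 31.6 with DMSO and 73.8 and 74.3 with I-BET151, and its region also holds the start of PLAGL2. The gap of POFUT1 was 17.8 by −log10 p and −2.12 by reads. POGLUT1, which adds O-glucose to the same receptors, was at 58 and 62.1 with DMSO and 88.2 and 85.1 with I-BET151. MAML2, a coactivator of the Notch transcription complex, was at 41.8 and 49.5 with DMSO and 79.4 and 83 with I-BET151. These 3 modify the receptor or act with it, and no Notch receptor or ligand was among the rising promoters.

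Among 22 genes of BET proteins and of the elongation factor P-TEFb and its partners, 4 (18.2%) rose and 5 (22.7%) fell. BRD3, a target of I-BET151 itself (chr9:134067924-134069007), was at 4.94 and 3.31 with DMSO and 21.4 and 27.9 with I-BET151. It stayed in the lower part of the ranking in all libraries, with 25 and 21 reads in the DMSO and 20 and 50 in the I-BET151 libraries. The region shared by SKIC2 and NELFE, a subunit of the negative elongation factor, was at 25.5 and 24.1 with DMSO and 79 and 94.9 with I-BET151. MLLT1, a reader of acylated histones in the super elongation complex, was at 43 and 50.6 with DMSO and 84 and 80.4 with I-BET151. SUPT4H1, an elongation factor subunit, completed the 4. Of 35 genes for histone acetylation and bromodomain proteins 3 (8.57%) rose and 8 (22.9%) fell. HDAC3, a histone deacetylase that shares its region with RELL2, was at 15.7 and 24 with DMSO and 79.5 and 64.2 with I-BET151. SMARCA4, the ATPase of the BAF remodelling complex, was at 29.9 and 31.2 with DMSO and 76.4 and 46.4 with I-BET151, with the I-BET151 libraries far apart. TRIM33 was at 41.3 and 37.7 with DMSO and 56.6 and 60.8 with I-BET151. The gap was 9.23 by −log10 p and −1.93 by reads at MLLT1, and 7.04 by −log10 p and 0.579 by reads at TRIM33.
For the cell cycle 7 of 50 genes (14%) rose and 7 fell. E2F1, a transcription factor that promotes entry into S phase (chr20:33685694-33686895), was at 8.31 and 21.3 with DMSO and 81 and 71.8 with I-BET151. Its partner TFDP1 was at 1.87 and 10.1 with DMSO and 46.8 and 39.7 with I-BET151. CCNE1, the cyclin E gene, was at 47.9 and 41 with DMSO and 94.2 and 79.8 with I-BET151, but its gap was 2.84 by −log10 p and −14.9 by reads. The others were PLK1, PKMYT1, RB1 and CDC20. Among 49 DNA replication genes 4 (8.16%) rose and 7 (14.3%) fell. MCM2, a subunit of the replicative helicase, was at 45.4 and 66.4 with DMSO and 93.8 and 94.6 with I-BET151, but its gap was 9.13 by −log10 p and −0.917 by reads. TIMELESS, which protects replication forks, was at 45.5 and 46.7 with DMSO and 72.1 and 74.8 with I-BET151. ORC5, of the origin recognition complex, was at 61.8 and 68.7 with DMSO and 97.7 and 90.2 with I-BET151. The cell cycle and replication groups thus held rising and falling promoters in shares near those of all genes.

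Groups of mitochondrial and protein synthesis genes are given next. Of 64 mitochondrial ribosomal protein genes 11 (17.2%) rose and 7 (10.9%) fell. Besides MRPL38, the region of LRRC46 and MRPL10 was at 16.1 and 24.7 with DMSO and 90.6 and 84.3 with I-BET151. MRPL28 was at 13.5 and 10.9 with DMSO and 69.6 and 92.5 with I-BET151. Of 39 complex I genes of the respiratory chain 6 (15.4%) rose and 5 (12.8%) fell. NDUFV1, which holds the NADH binding site, was at 11 and 62.1 with DMSO and 94.2 and 88.1 with I-BET151, so that the DMSO libraries were far apart. NDUFA3 was at 65 and 70.5 with DMSO and 89.2 and 88.4 with I-BET151. NDUFAB1 was at 68 and 65.5 with DMSO and 90.8 and 83.4 with I-BET151. The gap was −3.84 by −log10 p and −20.9 by reads at NDUFV1, and 3.22 by −log10 p and −8.26 by reads at NDUFA3. Among 32 aminoacyl-tRNA synthetase genes 5 (15.6%) rose and 2 (6.25%) fell. QARS1 was at 16.3 and 35.4 with DMSO and 92 and 75.5 with I-BET151. VARS2, a mitochondrial enzyme, was at 1.77 and 2.59 with DMSO and 38.4 and 51.9 with I-BET151. TARS2, also mitochondrial, was at 82.4 and 75.4 with DMSO and 99 and 99.2 with I-BET151. All 4 TARS2 percentiles lay above 75, and its gap was 7.67 by −log10 p and 1.66 by reads.
Of 72 cytosolic ribosomal protein genes 6 (8.33%) rose and 6 fell. Among 55 translation factor genes 6 (10.9%) rose and 9 (16.4%) fell, and the widest gap was that of EIF2AK4, a kinase that senses amino acid shortage, at 17.8 and 40.5 with DMSO and 77.5 and 74.7 with I-BET151. Of 106 splicing genes 12 (11.3%) rose and 18 (17%) fell, and besides PRPF6 these included PRPF31 at 35.6 and 38.2 with DMSO and 70.1 and 81.5 with I-BET151. SNRPC, of a spliceosomal snRNP, was at 40.1 and 46.2 with DMSO and 86.7 and 76.4 with I-BET151. Of 39 proteasome genes 3 (7.69%) rose and 1 fell, and PSME1, a subunit of the proteasome activator, was at 57.2 and 57.3 with DMSO and 78.4 and 77.7 with I-BET151, but its gap was 4.93 by −log10 p and −3.02 by reads.

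The largest named group was that of ZNF genes, most of which encode C2H2 zinc finger proteins that bind DNA, with 49 of 306 (16%) rising and 31 (10.1%) falling. The region of ZNF544 (chr19:58228138-58229237) was at 14.9 and 10.3 with DMSO and 63.3 and 70.2 with I-BET151. ZNF517 was at 29.3 and 39.7 with DMSO and 85 and 83.8 with I-BET151. ZNF474 was at 31.3 and 12.9 with DMSO and 75.5 and 74.7 with I-BET151. Solute carriers had 17 of 165 (10.3%) rising and 15 (9.09%) falling. SLC41A1, a magnesium transporter, was at 13.7 and 22.9 with DMSO and 66.3 and 72.7 with I-BET151. SLC26A6, an anion exchanger of ductal cells, was at 1.73 and 43.7 with DMSO and 80.5 and 82.7 with I-BET151. Among 89 genes for cilium assembly 9 (10.1%) rose and 14 (15.7%) fell, and the region of EFCAB12 and IFT122, a subunit of the retrograde transport complex of the cilium, was at 20.7 and 23.3 with DMSO and 84 and 84.1 with I-BET151.
Signaling genes of the TGFβ and BMP pathways had 0 of 26 shared promoters rising and 8 (30.8%) falling, and both groups of cells were kept with the TGFβ inhibitor. Of 41 MAPK cascade genes 6 (14.6%) fell and 1 (2.44%) rose, namely MAP2K2, at 7.63 and 7.21 with DMSO and 23.2 and 55.5 with I-BET151, but its gap was 9.96 by −log10 p and −2.32 by reads. Of 26 genes for EGF and FGF signaling 4 (15.4%) fell and 1 (3.85%) rose, FGF1, at 25.5 and 30.9 with DMSO and 68.2 and 61.6 with I-BET151. In the WNT pathway 3 of 25 (12%) rose and 7 (28%) fell, with TCF7 at 1.12 and 0.386 with DMSO and 30.7 and 22 with I-BET151. Of 9 Hedgehog genes 2 (22.2%) fell, and the 3 (33.3%) that rose were IFT172, STK36 and DISP1, the last of which releases the ligand from cells and was at 18.4 and 29.4 with DMSO and 39.8 and 44.6 with I-BET151, with a gap of 9.07 by −log10 p and 5.28 by reads. The gap of STK36 was −0.917 by −log10 p and −6.45 by reads. Clustered histone genes had 0 of 35 rising and 13 (37.1%) falling.
Chaperones had 2 of 61 (3.28%) rising and 8 (13.1%) falling. The smaller regulatory groups were the MYC network with 1 of 8 rising (12.5%, the glucose-responsive factor MLXIPL, with a gap of 8.27 by −log10 p and −9.23 by reads) and 0 falling, Mediator subunits with 2 of 27 rising (7.41%) and 3 falling (11.1%), and Polycomb and histone methylation genes with 2 of 33 rising (6.06%) and 6 falling (18.2%). Of the last, SUV39H1, a histone H3 lysine methyltransferase, was at 22.5 and 38.8 with DMSO and 67.2 and 54.1 with I-BET151. In the p53 pathway 2 of 25 (8%) rose and 7 (28%) fell, and MDM4, an inhibitor of p53, was at 79.5 and 78.3 with DMSO and 90.7 and 92.7 with I-BET151, but its gap was 3.70 by −log10 p and 4.29 by reads. The single HOX gene with a shared promoter did not rise. The list of genes of CTCF and cohesin had 2 of 18 (11.1%) rising and 8 (44.4%) falling, where CDCA5, the cohesin regulator sororin, shared a region with ZFPL1 at 13.9 and 1.47 with DMSO and 56.2 and 66.3 with I-BET151. Immediate early genes had 2 of 28 (7.14%) rising and 7 (25%) falling. ARC was at 4.21 and 2.06 with DMSO and 23.3 and 26 with I-BET151. Its peaks carried 39 and 32 reads in the DMSO and 21 and 55 in the I-BET151 libraries, and by reads alone its gap was −41.2 points. Of 6 collagen genes 2 (33.3%) rose and 1 (16.7%) fell, and at both the reads ranked lower with I-BET151. COL1A1 carried 33 and 32 reads in the DMSO and 24 and 59 in the I-BET151 libraries, with a gap of −23.7 points by reads. COL5A1 carried 34 and 34 reads in the DMSO and 20 and 48 in the I-BET151 libraries, with a gap of −38.1 points. By −log10 p the gaps of ARC, COL1A1 and COL5A1 were −0.886, 6.56 and −7.48 points. Over the genome background of the library, the local background at ARC was 4.09 and 3.42 in the DMSO and 2.80 and 3.96 in the I-BET151 libraries. At COL1A1 it was 3.29 and 2.93 in the DMSO and 2.60 and 3.31 in the I-BET151 libraries. At COL5A1 it was 3.32 and 2.81 in the DMSO and 1.76 and 2.24 in the I-BET151 libraries, so that here both I-BET151 values lay under the DMSO values, whereas at ARC and COL1A1 I-BET151 replicate 1 had the lowest value and I-BET151 replicate 2 lay above DMSO replicate 2.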

How the data were processed

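ATAC-seq was performed on MEL1-derived PP cells with 2 DMSO and 2 I-BET151 libraries, grouped by the sample labels. According to the methods and the submitters' processing notes, alignment to hg38 by the authors used Bowtie2 (v2.2.5), followed by removal of duplicate and of mitochondrial reads. MACS2 (v2.1.2) was then run without a control library, once per library. The deposited fold enrichment is the ratio of (pileup + 1) to (local background + 1) at the summit, and the deposited −log10 p is its Poisson p-value, both computed by the authors. Further columns of the lists (a display score and −log10 q) were not used. The methods state a p limit of 1e-05, but the lists also hold weaker peaks, and that limit was run as an alternative.

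Peaks sharing at least 1 bp were joined, and gene starts were those of protein-coding genes in GENCODE 44. No peak ended beyond a chromosome of the hg38 sequence used. The pileup in whole reads and the local background were solved from fold enrichment and p, which succeeded for 100% of the peaks. The depth of each library was estimated from its genome background taking the human genome size that MACS2 assumes, and limits the precision as stated beside the counts, where it covers counting error only. The rule and the solver were run on simulated data with known answers, which checks the code only. The simulated noise was not set to the spread between these libraries. Scripts ran under Python 3.11.15 with pandas 2.3.3, matplotlib 3.10.9, numpy 2.4.6 and scipy 1.17.1.

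Named promoters were the 15 with the widest gap, the 3 just inside and the 3 just outside the limit, and up to 3 with the widest gap in each of 31 gene lists, named by the gene start nearest to the summit. PLAGL2, SUPT4H1, PLK1, PKMYT1, RB1, CDC20 and VIL1, which lie outside that rule, and the markers GATA6 and SOX9 were chosen after their values were seen. Lists of gene families were drawn by patterns in the symbols. The members, the lists and the motifs were chosen with earlier results of these data known, and no list is independent support of a direction. Sequences and GC content are from hg38. Some items the rule would name are not reported here. Alternatives were another ranked measure, stricter and equal-sized peak lists, another merge, other universes of the percentile, other gaps and distances, any transcript start, and leaving out each library. The replicate numbers were not taken to pair the samples, as deviations from the group means correlated at 0.0441 between libraries of the same number over the 8665 shared promoters.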

Additional observations from a re-analysis of the deposited data

How the results depend on the processing

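Under the settings tried the number of rising promoters was between 528 and 2060, around 1072 as reported. It was 528 (6.09% of the shared promoters) at a gap of 20 points and 1664 (19.2%) with percentiles among all peaks of a list, which contained 865 of the 1072. Leaving out 1 library in turn, a rule that then compares fewer libraries, gave 1396 to 2060 promoters (15.6% to 23.7%), with 1913 without DMSO replicate 2 and 2060 without I-BET151 replicate 2, and between 1010 and 1059 of the 1072 were found each time. The share of the shared promoters also moved by more than its counting interval to 9.72% ranked by −log10 p, 9.17% ranked by reads, 13.1% with peaks of −log10 p of at least 10, 14.2% with percentiles among shared promoters and 17.5% at a gap of 5 points. With the replicate block, asking only that both same-numbered pairs differ by at least 10 points (added after seeing the data), 1335 promoters (15.4%) rose, which included all 1072.

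Of the promoters chosen on the replicate 1 pair, 38.0% ranked by −log10 p, 36.4% ranked by reads, 47.5% with peaks of −log10 p of at least 10 and 44.5% with equal numbers of peaks were at least 10 points higher in the replicate 2 pair. In the other direction the shares were 72.5%, 73.2%, 74.9% and 73.8%, beside 33.9%, 31.6%, 34.9% and 33.2% of all shared promoters. The median GC content was 1.99 percentage points above that of all other shared promoters, and 0.333 points above it from 250 bp before to 50 bp after the gene start.

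Among 85 named promoters, ranking by reads turned the direction at 7, with gaps of −11.4 at MAFA, −41.2 at ARC, −5.49 at TMEM234 with EIF3I, −8.26 at NDUFA3, −15.3 at ENSG00000288721 with MED20, −23.7 at COL1A1 and −38.1 at COL5A1, and 44 others fell under 10 points. Ranking by −log10 p left 58 of the 85 at 10 points or more and reversed 0. Depth limits single promoters most, with 1 counting SD of the pileup worth a median of 12.4 to 18.4 percentile points.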
